A study of Homo sapiens with 9 samples.

Results

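The 40 genes described here encode the factors that detect and mend DNA double-strand breaks. They were taken by name from the deposited count table, as a fixed list of end joining, homologous recombination, Fanconi anemia and checkpoint genes. The table holds 38146 entries after repeated entries, and entries without counts that shared a gene name, were dropped. That PARP2 fell in SUGP1-edited cells was already known when the list was drawn up. All 40 genes passed the minimum for testing, as part of 21071 genes tested.

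The libraries came from U-2 OS, a line grown from a human osteosarcoma, whose cells received Cas9 as mRNA and then 1 synthetic guide. The crSUGP1 guide cuts SUGP1, which encodes a nuclear RNA-binding protein with a G-patch domain. The crXCR1 guide cuts XCR1, the gene of a dendritic cell chemokine receptor, and serves as the control for a break in a gene that these cells do not use, and the NTC guide has no target in the genome. All 3 groups thus carried Cas9 and a guide, and each was a transfected population and not a clone. PolyA-enriched RNA was sequenced from 3 independent experiments with 1 library per guide in each, 9 libraries in all. Libraries of equal number were taken as 1 experiment, which the study's methods do not state. The labels give 72 h from guide to fixation for cells in plates, and the time for the flasks used for RNA is not given in the sources used here.

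A double-strand break is handled by 2 main routes. In non-homologous end joining, the ends are held by the Ku dimer and DNA-PKcs and sealed by DNA ligase IV. In homologous recombination, the MRE11-RAD50-NBN complex and its partners trim the ends, and BRCA1, BRCA2 and the mediator proteins prepare the exposed strand for pairing with its copy. PARP enzymes mark breaks with ADP-ribose chains, the ATM and ATR kinases signal the damage, and the Fanconi proteins act at crosslinks and stalled forks. Since Cas9 acts by making such breaks, the crXCR1 libraries ask how these genes respond to a cut as such, and the crSUGP1 libraries ask what is added when SUGP1 is lost.

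The site cut in the crSUGP1 cells is shown because the 2 comparisons with crSUGP1 rest on it. With its PAM the target is at chr19:19297309-19297331 (GRCh38, plus strand), in exon 8 of 14 of SUGP1, a gene of the minus strand. The capitals mark the 20-base target and the PAM, between 20 bases of flanking sequence on each side.

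crSUGP1 site: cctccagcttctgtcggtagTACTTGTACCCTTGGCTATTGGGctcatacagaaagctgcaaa

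No member lies on chromosome 19. A search of the spans of the 40 genes for this guide, allowing 3 mismatches beside an NGG, found 0 sites. SUGP1 mRNA was at 7.87, 7.68 and 6.52 CPM (counts scaled to a common library size with TMM factors) in the crSUGP1 libraries, against 31.6, 29 and 28.2 CPM in crXCR1 and 30.2, 30.8 and 28.3 CPM in NTC, as the labels say. XCR1 had 13 to 14 counts in each crXCR1 library, against 0 to 1 in each NTC library and 0 in each crSUGP1 library, and was too low to test. Library totals were 68712738 to 107952835 counts. The members had 524 to 61536 counts per library, so counting error was small for each of them. Of 10 osteoblast and mesenchymal markers, 7 were tested, with a summed level of 3964 to 4205 CPM in crSUGP1, 4262 to 4555 CPM in crXCR1 and 4221 to 4685 CPM in NTC, while IBSP, COL1A2 and SP7 stayed below 0.25 CPM in NTC. The 8 leukocyte markers summed to 6.9 to 10.3 CPM, 6.86 to 9.39 CPM and 7.4 to 9.49 CPM in the same order, with CD14, CD3E, LYZ and CLEC9A below 0.25 CPM in NTC. Epithelial and endothelial markers summed to at most 17.1 CPM and 10.1 CPM in any library.

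Of the 40 members, PARP2 alone was called changed in crSUGP1 cells, and it was lower against both controls. PARP2 is the smaller partner of PARP1 and is switched on by DNA breaks. Calls required a Benjamini-Hochberg adjusted p of 0.05 or less over all genes tested, from edgeR's quasi-likelihood test, and a log2 fold change of 0.5 or more in size. Against NTC 1 of 40 members was called lower, where 0.456% of all genes tested were called lower, and against crXCR1 the same 1 of 40, where the background was 0.584%. No member was called higher in either comparison. A count of 1 gene that was known beforehand says nothing about the list.

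PARP2 mRNA was at 39.4, 41.3 and 41.8 CPM in crSUGP1, against 71.7, 73.2 and 72.7 CPM in crXCR1 and 71.5, 77.6 and 73.2 CPM in NTC. The highest crSUGP1 library lay far below the lowest of the 6 control libraries, and the 2 control groups overlapped. The log2 fold change was -0.86 versus NTC (SE 0.053, 95% interval -0.98 to -0.74, edgeR adjusted p = 1.2e-04), and the level fell by 44.9%. Versus crXCR1 it was -0.83 (SE 0.053, 95% interval -0.95 to -0.71, edgeR adjusted p = 1.3e-04), and the level fell by 43.7%. In bulk RNA, fewer cells that use a gene and less RNA per cell cannot be told apart.

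Within each experiment, the log2 ratio of PARP2 between crSUGP1 and NTC was -0.86, -0.91 and -0.81, and between crSUGP1 and crXCR1 it was -0.86, -0.83 and -0.80. All 6 ratios thus lay in a narrow band. With the experiment as a block, the adjusted p was 1.0e-08 against NTC and 1.9e-08 against crXCR1 from edgeR. In fits without the block that left out experiment 1 or experiment 2, the call was lost (adjusted p = 0.082 and 0.106 versus NTC, 0.101 and 0.104 versus crXCR1, from edgeR), although the fold hardly moved. In those fits edgeR called only 2 genes in all against NTC.

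The other PARP members and POLQ were not called. PARP1, the main sensor of strand breaks, was at 381, 369 and 331 CPM in crSUGP1, against 353, 331 and 303 CPM in crXCR1 and 346, 368 and 317 CPM in NTC. These ranges overlapped, and experiment 3 was the lowest library of each guide. The log2 fold change of PARP1 was 0.07 versus NTC (95% interval -0.12 to 0.26) and 0.13 versus crXCR1 (95% interval -0.06 to 0.32).

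PARP3, a mono-ADP-ribosylating enzyme that acts with end joining, was at 19.7, 20 and 18.1 CPM in crSUGP1, against 23.2, 21.1 and 21.5 CPM in crXCR1 and 22.4, 21 and 21.7 CPM in NTC. All crSUGP1 libraries lay below all controls, by small margins. Its log2 fold change of -0.17 versus NTC and -0.19 versus crXCR1 did not pass the test (adjusted p = 0.317 and 0.224 from edgeR, 0.0483 and 0.0257 with the block). POLQ, the polymerase of microhomology-mediated end joining, was at 56.7, 57.5 and 60.1 CPM in crSUGP1, against 56, 55.6 and 50.5 CPM in crXCR1 and 55.6, 56.5 and 48.4 CPM in NTC. Its crSUGP1 libraries lay just above all controls (log2 fold changes 0.12 and 0.10, adjusted p = 0.554 and 0.526 from edgeR).

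Per kilobase of transcript, the scale on which genes can be compared with each other, PARP2 made up 17.2%, 18.3% and 20.1% of the summed CPM per kb of PARP1, PARP2 and PARP3 in the crSUGP1 libraries. The share was 28.5%, 30.3% and 31.8% in crXCR1 and 28.8%, 29.5% and 31.1% in NTC. The crSUGP1 libraries did not overlap with the controls in this share, which restates the fall of PARP2 and is no separate observation. PARP1 was the most abundant of the 3 in every group, with a mean of 90.5 CPM per kb in crSUGP1, 82.7 in crXCR1 and 86.3 in NTC.

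Of 13 other genes of the PARP family, 12 were tested and 0 were called in the 2 comparisons with crSUGP1. Their log2 fold changes were -0.14 to 0.17 versus NTC and -0.09 to 0.23 versus crXCR1. Of 12 genes that prime, read or remove ADP-ribose, 0 of 12 were called, with values of -0.20 to 0.15 versus NTC and -0.27 to 0.23 versus crXCR1. Among them HPF1, the cofactor that directs PARP1 and PARP2 to serines, had log2 fold changes of -0.03 and 0.05, and PARG, which trims the chains, of 0.10 and 0.12, against NTC and crXCR1 in that order. With the experiment as a block and no fold threshold, TNKS (higher) and CHD1L (lower) passed the adjusted p of 0.05 against NTC. Against crXCR1, PARP12 and NAMPT did, both higher. In those fits 15.7% and 21.7% of all genes passed.

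The PARP2 gene spans chr14:20343615-20357904 on the plus strand. Its neighbours on chromosome 14 with at least 2469 counts in every library were close to level in crSUGP1: CCNB1IP1 had a log2 fold change of -0.01 versus NTC, TEP1 of -0.08, OSGEP of -0.04 and APEX1, the abasic-site endonuclease of base excision repair, of -0.14. The antisense transcript AL355075.1, which lies within PARP2 and shares 26 exon bases with it, was at 0.674, 0.744 and 0.723 CPM in crSUGP1, against 1.31, 1.28 and 1.39 CPM in crXCR1 and 1.21, 1.42 and 1.4 CPM in NTC. It was called lower as well (log2 fold changes -0.91 and -0.90, adjusted p = 0.00665 and 0.00804 from edgeR), with the calls lost without experiment 1 or 2 (adjusted p up to 0.451). Whether the counting kept the strands apart is not stated, so reads of the 2 genes cannot be told apart here. Its 51 to 155 counts per library are few beside the 2951 to 8121 counts of PARP2. A further opposite-strand transcript, AL355075.4, lies across the start of PARP2 and shares 71 exon bases with it. It had log2 fold changes of -0.69 versus NTC and -0.39 versus crXCR1 (adjusted p = 0.232 and 0.448 from edgeR), from 132 to 434 counts, and was called lower against NTC with the block (log2 fold change -0.67, adjusted p = 0.0133 from edgeR).

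On its upstream side, PARP2 shares its promoter region with RPPH1, the RNA of ribonuclease P, which is read in the other direction. RPPH1, at chr14:20343075-20343407, lies wholly within AL355075.4, at chr14:20343048-20343685, on the same strand. The values of these 2 transcripts are therefore not separate observations. RPPH1 had a log2 fold change of -0.60 versus NTC (adjusted p = 0.391 from edgeR) and -0.12 versus crXCR1 (adjusted p = 0.874), from 108 to 331 counts, in libraries enriched for polyA RNA. With the block RPPH1 was called lower against NTC (log2 fold change -0.59, 95% interval -0.98 to -0.20, adjusted p = 0.041 from edgeR) and not against crXCR1 (adjusted p = 0.721). It was at 2.5, 1.62 and 1.53 CPM in crSUGP1, against 1.92, 2.12 and 2.14 CPM in crXCR1 and 3.32, 1.69 and 3.59 CPM in NTC, with overlap.

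The promoter of PARP2 (RefSeq, GRCh38.p14, plus strand, chr14:20343385-20343684) is printed because PARP2 is the member on which both comparisons turn. It runs from 250 bases before the RefSeq start to 50 bases after it, and 58.3% of its bases are G or C. The capitals mark an octamer motif and a cAMP response element found on the plus strand.

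PARP2 promoter: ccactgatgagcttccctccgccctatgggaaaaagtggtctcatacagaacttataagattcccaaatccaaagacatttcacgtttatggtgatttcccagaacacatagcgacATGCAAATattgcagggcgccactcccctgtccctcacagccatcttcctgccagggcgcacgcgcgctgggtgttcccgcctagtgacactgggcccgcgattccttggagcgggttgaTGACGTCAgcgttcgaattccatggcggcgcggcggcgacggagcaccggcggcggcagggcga

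Promoters of this length were matched by symbol for 36 of the 40 members, all but PRKDC, XRCC5, NBN and FANCI, and searched on both strands. The letters TGACGTCA were in 1.85% of 35116 promoters and in 4 of 36 member promoters, those of EXO1, PARP2, RAD51C and XRCC2. The letters ATGCAAAT were in 1.77% of all promoters and in 1 of 36 members, PARP2. The GC box GGGCGG was in 45% of all promoters and in 28 of 36 members, PARP2 among them, and the CCAAT box in 34.6% and in 16 of 36. EXO1, RAD51C and XRCC2 had log2 fold changes of 0.03, 0.15 and 0.01 versus NTC, and none of the 3 passed the test. Such matches are letters in a window and were not tested as binding sites.

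Of the remaining 39 members, none passed both thresholds, and 39 of 40 had a 95% interval within 0.5 of 0 on the log2 scale against NTC, and 39 of 40 against crXCR1. The median log2 fold change of the 40 members was 0.03 versus NTC and 0.03 versus crXCR1, with -0.00 over all genes tested in both comparisons. Against NTC, 35 of 40 members moved by at most 0.2. Both comparisons share the crSUGP1 libraries, so their agreement is no separate evidence.

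**Figure D1:**
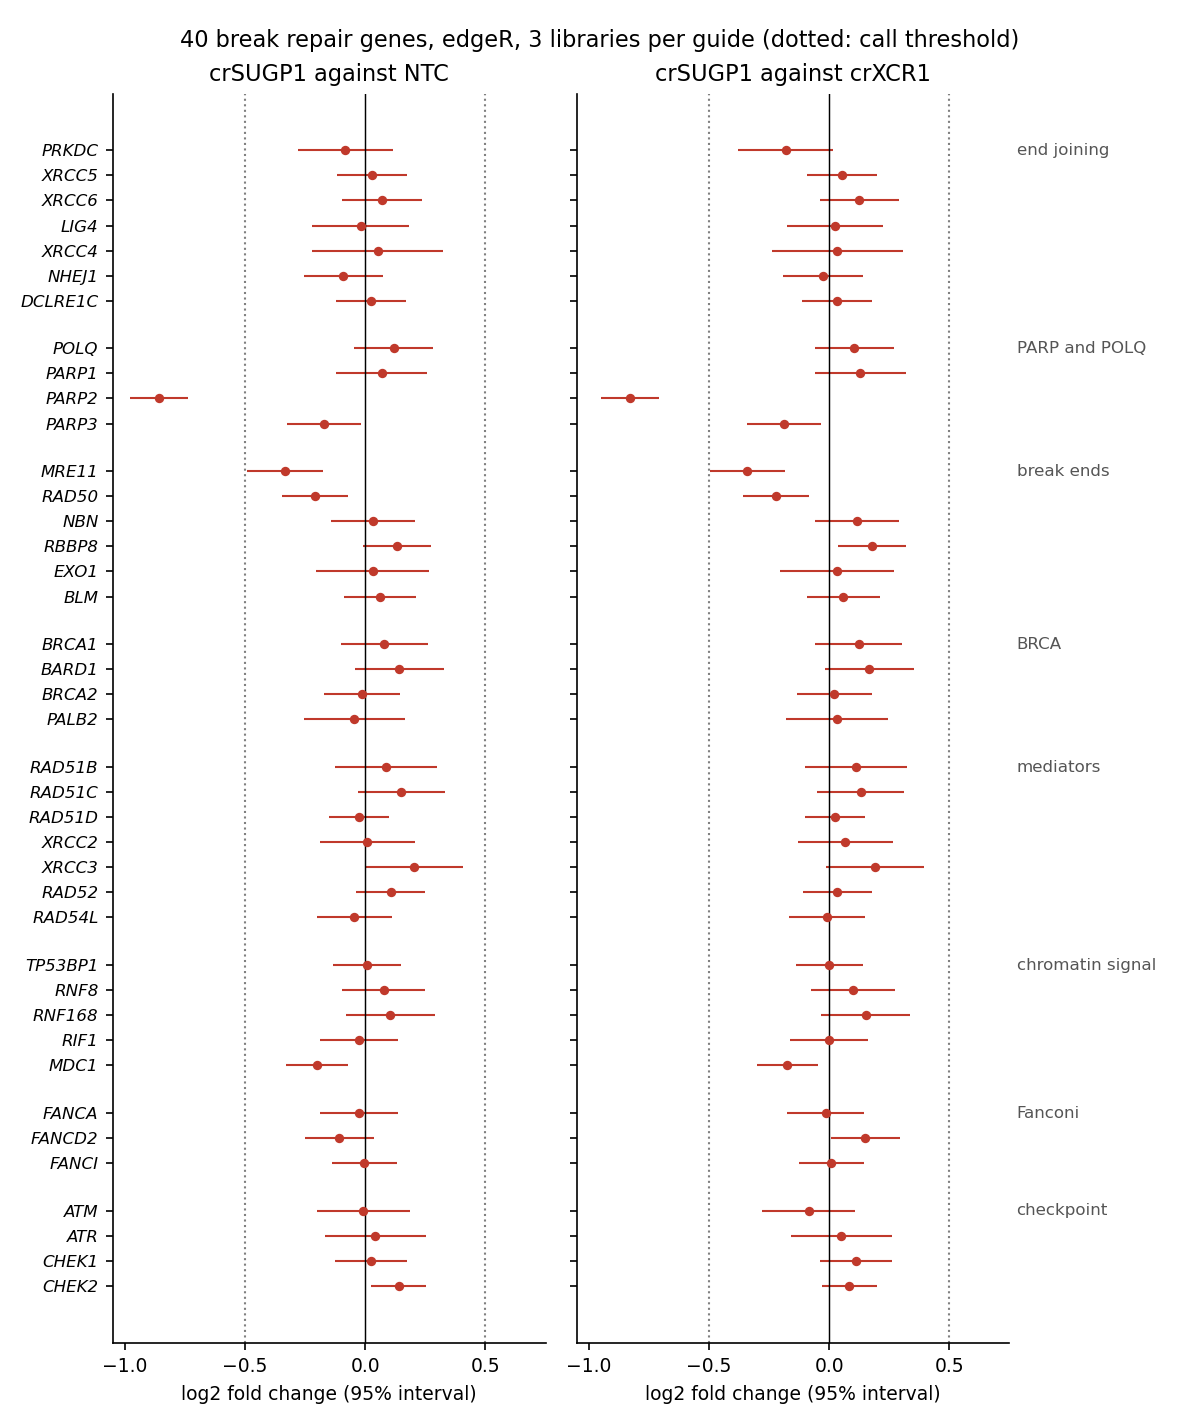
Log2 fold changes (x axis) of the 40 members in crSUGP1 against NTC (left) and against crXCR1 (right), by role, as points with 95% intervals from edgeR on 3 libraries per guide, with dotted lines at the call threshold of 0.5. PARP2 stands at -0.86 and -0.83, and the other intervals stay inside the dotted lines.

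The next largest values were those of MRE11 and RAD50 in the MRE11-RAD50-NBN complex, the sensor that binds broken ends, holds them together and calls in ATM. Its genes, with MDC1, CHEK2 and RAD52, were singled out after their values had been seen. MRE11, the nuclease, was at 25.7, 25.5 and 29.1 CPM in crSUGP1, against 35.4, 34 and 32.2 CPM in crXCR1 and 33.4, 34.7 and 33.1 CPM in NTC. All 3 crSUGP1 libraries lay below all 6 controls. The log2 fold change was -0.33 versus NTC (95% interval -0.49 to -0.18, adjusted p = 0.057 from edgeR) and -0.34 versus crXCR1 (95% interval -0.50 to -0.18, adjusted p = 0.0522 from edgeR).

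MRE11 thus stayed just outside the test and below the fold threshold. With the block its adjusted p was 0.00187 and 0.0013, and with DESeq2 8.9e-04 and 8.2e-04. Within experiments its log2 ratio against NTC was -0.38, -0.45 and -0.19, with the smallest difference in experiment 3. Without that experiment the adjusted p from edgeR was 8.1e-04 against NTC and 5.3e-04 against crXCR1. The experiment left out was the one with the smallest difference, so this p is no separate evidence. Why the p was lower was not tested. Of all genes, 1485 and 1800 passed the adjusted p in that fit, against 265 and 301 with all libraries. Without experiment 1 or without experiment 2, 2 genes in all passed against NTC, and MRE11 was not among them.

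RAD50, the ATPase that bridges the ends, was at 33.5, 33.4 and 33 CPM in crSUGP1, against 39.8, 38.6 and 37.8 CPM in crXCR1 and 37.8, 41.3 and 36.2 CPM in NTC. Again no crSUGP1 library reached the controls. The log2 fold change was -0.21 versus NTC (adjusted p = 0.172 from edgeR, 0.0134 with the block, 0.0424 with DESeq2) and -0.22 versus crXCR1 (adjusted p = 0.127, 0.00693 and 0.0271 in the same order).

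NBN, the subunit that binds ATM, showed no such difference. It was at 50.9, 53.1 and 53.4 CPM in crSUGP1, against 51.3, 50.5 and 43.7 CPM in crXCR1 and 51, 55.2 and 47.8 CPM in NTC, with overlapping ranges (log2 fold changes 0.03 and 0.11, adjusted p = 0.922 and 0.517 from edgeR). The ratio of MRE11 to NBN within a library, in CPM, was 0.505, 0.48 and 0.544 in crSUGP1, against 0.69, 0.673 and 0.737 in crXCR1 and 0.654, 0.628 and 0.693 in NTC. The ratio of RAD50 to NBN was 0.657, 0.629 and 0.617 in crSUGP1, against 0.777, 0.764 and 0.866 in crXCR1 and 0.741, 0.747 and 0.758 in NTC. Both ratios were lower in every crSUGP1 library than in every control, a description of genes picked for their values that was not tested.

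**Figure D2:**
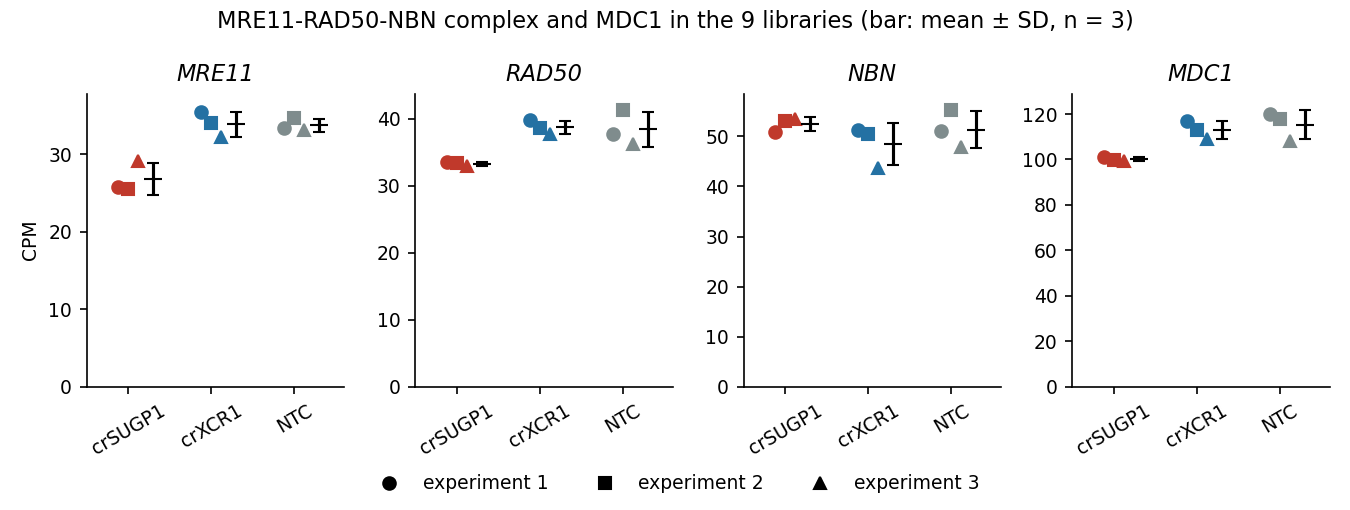
CPM of MRE11, RAD50, NBN and MDC1 (y axes from 0) in the crSUGP1, crXCR1 and NTC libraries, with a marker shape for each experiment and the mean ± SD of 3 libraries. MRE11 (25.5 to 29.1 CPM in crSUGP1, 32.2 to 35.4 CPM in the controls), RAD50 and MDC1 do not overlap with the controls, and NBN does.

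The other genes acting on ends were close to level. RBBP8, which encodes the resection factor CtIP, had log2 fold changes of 0.13 versus NTC and 0.18 versus crXCR1 (adjusted p = 0.42 and 0.215 from edgeR, and 0.0219 with the block in the second). EXO1, a resecting nuclease, stood at 0.03 in both, and BLM, a helicase that unwinds ends and junctions, at 0.06 in both.

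MDC1, the scaffold that spreads the mark of phosphorylated H2AX along chromatin, was at 101, 99.9 and 99.5 CPM in crSUGP1, against 117, 113 and 109 CPM in crXCR1 and 120, 118 and 108 CPM in NTC. The crSUGP1 libraries lay below all controls. Its log2 fold change was -0.20 versus NTC (adjusted p = 0.157 from edgeR, 0.00774 with the block) and -0.17 versus crXCR1 (adjusted p = 0.184, 0.0133 with the block). The antisense gene MDC1-AS1, which shares 9.2% of the exon bases of MDC1, had a log2 fold change of -0.20 in both, and reads of the pair cannot be told apart where strand was not used.

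The other 4 genes of chromatin signalling were TP53BP1, which holds back resection, its partner RIF1, and the ubiquitin ligases RNF8 and RNF168. Their log2 fold changes against NTC were 0.01, -0.03, 0.08 and 0.10, and none passed the test. RNF168 was at 28.3, 26.4 and 32 CPM in crSUGP1, against 25.2, 26.1 and 26.7 CPM in crXCR1 and 25.1, 28.7 and 26.9 CPM in NTC, with overlap.

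In all, 5 members (PARP2, PARP3, MRE11, RAD50 and MDC1) had their 3 crSUGP1 libraries below all 6 controls, or 12.5% of the members, where 6.69% of all genes did. Another 3 members (POLQ, RAD52 and CHEK2) had them above all 6, or 7.5%, where 6.36% of all genes did. At an adjusted p of 0.05 with no fold threshold, the block fit took 7 of 40 members against NTC and 8 of 40 against crXCR1, where it took 15.7% and 21.7% of all genes. DESeq2 took 4 of 40 and 3 of 40, where it took 3.93% and 4.94% of all genes. The block shares of the members, 17.5% and 20%, were thus near the background.

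The 7 genes of classical end joining stayed close to 0. Their log2 fold changes ran from -0.09 to 0.07 versus NTC and from -0.18 to 0.13 versus crXCR1, with 0 of 7 called. The group holds XRCC5 and XRCC6, the Ku subunits, the ligase LIG4 with its partners XRCC4 and NHEJ1, and the nuclease DCLRE1C, known as Artemis. PRKDC, the catalytic subunit of DNA-PK, had the lowest of the values against crXCR1. It was at 305, 282 and 267 CPM in crSUGP1, against 351, 323 and 294 CPM in crXCR1 and 320, 312 and 273 CPM in NTC, so the groups overlapped while experiment 3 was lowest for every guide (log2 fold change -0.18 versus crXCR1, adjusted p = 0.354 from edgeR, 0.0109 with the block).

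Among the genes of homologous recombination, 0 of 4 in the BRCA group were called. BRCA1 and its partner BARD1 had log2 fold changes of 0.08 and 0.14 versus NTC, and BRCA2, a core factor of homologous recombination, and PALB2, which joins BRCA1 to BRCA2, of -0.01 and -0.05.

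Of the 7 recombination mediators, 0 were called, and 5 of 7 were positive against NTC. XRCC3, which acts in a complex with RAD51C, had the highest value of all 40 members in both comparisons. It was at 60.8, 57.3 and 49.4 CPM in crSUGP1, against 52, 48 and 47 CPM in crXCR1 and 53.3, 46.2 and 46 CPM in NTC. The crSUGP1 library of experiment 3 lay within the range of the controls. The log2 fold change was 0.20 versus NTC and 0.19 versus crXCR1 (adjusted p = 0.379 and 0.346 from edgeR, 0.0147 and 0.0177 with the block). XRCC3 shares 76.7% of its exon bases with KLC1 on the other strand, which had log2 fold changes of 0.07 and 0.06, and their reads cannot be told apart where strand was not used.

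RAD51C, its partner, had log2 fold changes of 0.15 and 0.13 (adjusted p = 0.483 and 0.469 from edgeR, 0.0474 and 0.064 with the block). RAD52, which anneals single strands, was at 20.6, 21.1 and 20.7 CPM in crSUGP1, against 20.6, 20.5 and 20 CPM in crXCR1 and 20.1, 18 and 19.9 CPM in NTC, with a separation from crXCR1 smaller than the rounding of these values (log2 fold changes 0.11 and 0.03, adjusted p = 0.54 and 0.848 from edgeR). RAD51B, RAD51D, XRCC2 and the motor RAD54L ran from -0.05 to 0.09 versus NTC.

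The checkpoint kinases were level as well. ATM, the kinase called to double-strand breaks, and ATR, the kinase of single-stranded DNA, had log2 fold changes of -0.01 and 0.04 versus NTC, and CHEK1, the target of ATR, of 0.03. CHEK2, the target of ATM, was at 33, 34.3 and 32.9 CPM in crSUGP1, against 31.6, 31.9 and 31 CPM in crXCR1 and 30.3, 30.2 and 30.4 CPM in NTC. Its libraries did not overlap between any of the 3 groups, but the differences were small (log2 fold changes 0.14 and 0.08, adjusted p = 0.273 and 0.459 from edgeR). Of the Fanconi genes, FANCA and FANCI had values of -0.03 and -0.00 versus NTC. Exon bases on the opposite strand of another gene were shared by TP53BP1 (28.8% of its exon bases), RAD54L (19.9%), FANCA (19.6%) and CHEK1 (13.4%), and by under 10% in the other members apart from XRCC3.

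In levels per kilobase, the members spanned from XRCC6, at 305 CPM per kb in crSUGP1, 279 in crXCR1 and 290 in NTC, to BRCA2, at 2.32, 2.29 and 2.34. The Ku subunit genes XRCC6 and XRCC5 and PARP1 were the 3 highest in every group. PARP2 was rank 7 of 40 in crSUGP1, at 22.4 CPM per kb, and rank 4 in both crXCR1 and NTC, at 39.7 and 40.6. Besides BRCA2, the low end held RAD51D, ATR, LIG4, NHEJ1, ATM and PALB2, all below 4 CPM per kb in each group.

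**Figure D3:**
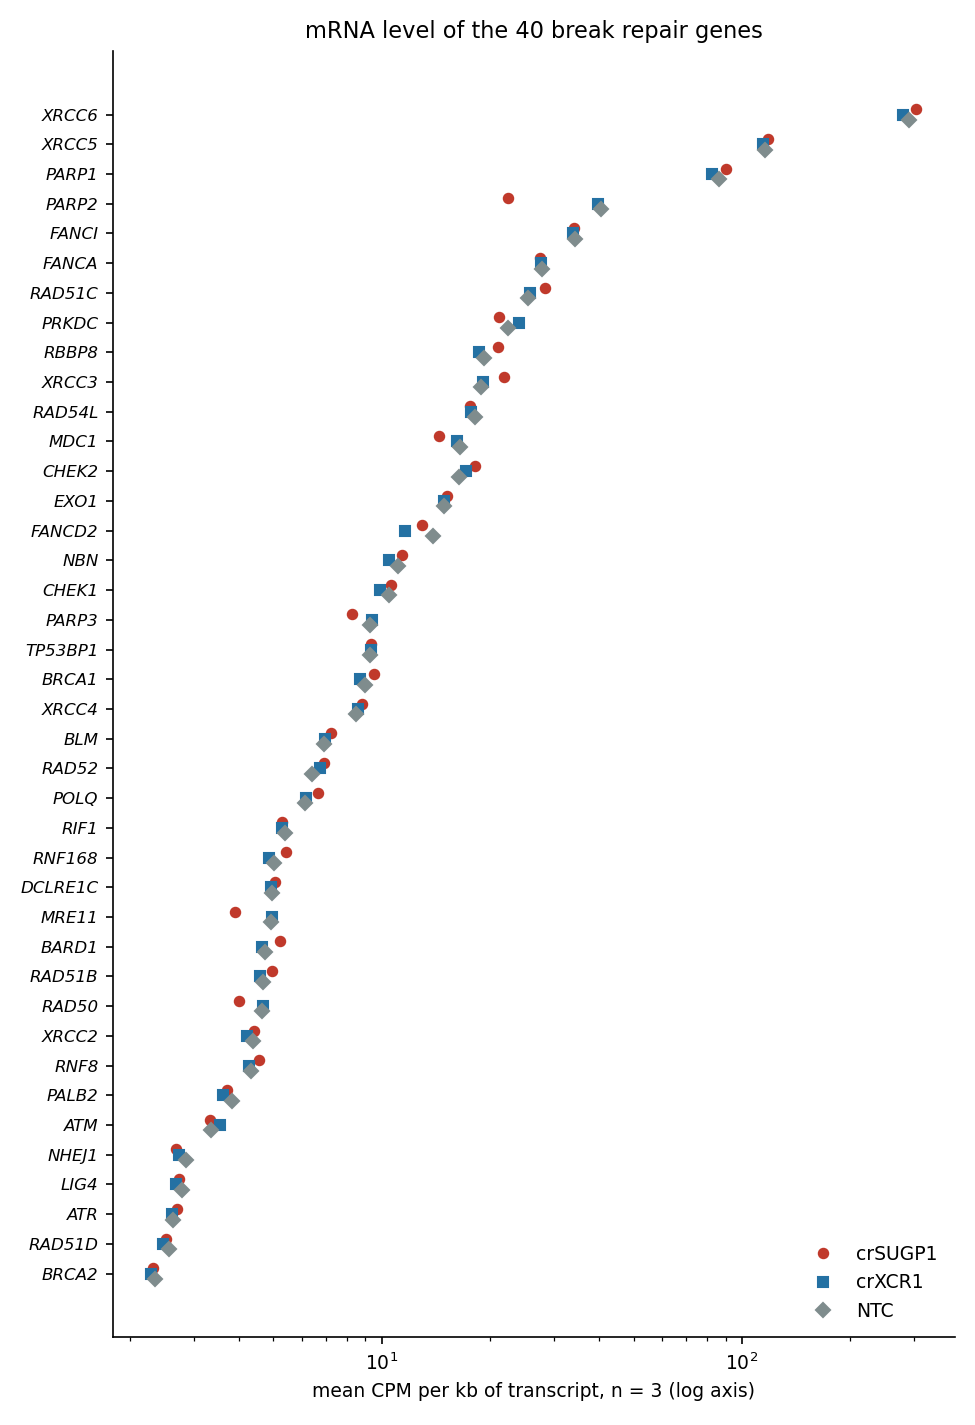
Mean CPM per kb of transcript (x axis, log scale, n = 3 libraries) of the 40 members in crSUGP1, crXCR1 and NTC, ordered by the NTC level. The markers of the guides lie close together for most genes, and PARP2 shows the widest gap, at 22.4 in crSUGP1 against 39.7 and 40.6.

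The cut at XCR1 left the members without a called change. Between crXCR1 and NTC 0 of 40 members were called by edgeR, where 0% of all genes were called, and 0 by DESeq2 or with the block. At an unadjusted p under 0.05 there was 1 member by edgeR, 1 by DESeq2 and 2 with the block. Over all 21071 genes these counts were 282, 224 and 1393. The median log2 fold change was -0.03, and 39 of 40 members moved by at most 0.1. PRKDC had the highest value, at 0.10 (95% interval -0.10 to 0.30). PARP2 stood at -0.03 (95% interval -0.15 to 0.09). ATM and CHEK2 had all crXCR1 libraries above all NTC libraries, as 2 of 40 members, or 5%, where 2.71% of all genes did. FANCD2 alone had them all below, or 2.5%, where 2.01% of all genes did. ATM was at 45, 48.5 and 43.9 CPM in crXCR1, against 43.1, 43.8 and 43.2 CPM in NTC (log2 fold change 0.08), and did not pass the test.

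FANCD2, the Fanconi protein that is ubiquitinated at damaged DNA, was the exception in size. It was at 59, 61.4 and 57.4 CPM in crXCR1, against 68.8, 76.2 and 67.8 CPM in NTC, and at 64.3, 63.7 and 69.4 CPM in crSUGP1. The crXCR1 libraries lay below all 6 others, as 1 of 40 members, or 2.5%, where 0.949% of all genes did. Over NTC, crXCR1 cells stood at -0.26 on the log2 scale (95% interval -0.40 to -0.12), which did not pass the test (adjusted p = 1 from edgeR, 0.0832 with the block, 0.097 with DESeq2). DESeq2 with the block, added after the data had been seen, gave an adjusted p of 0.00551, still below the fold threshold. The ratios within experiments were -0.22, -0.31 and -0.24.

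FANCD2 lies on the short arm of chromosome 3, at chr3:10026414-10101932, on the telomere side of XCR1 at chr3:46017007-46027487. It is the 1 member in that stretch. The 225 genes there with a mean of at least 1 CPM had a median log2 fold change of -0.19 between crXCR1 and NTC (quartiles -0.23 and -0.13), and 28 of them were lower than FANCD2. Over the 668 other chromosome 3 genes the median was -0.02. The part of this shift in the value of FANCD2 was not tested. Its antisense neighbour FANCD2OS had the same value, -0.26, from 227 to 365 counts, beside 4400 to 6540 counts of FANCD2. The 2 genes share 359 exon bases, and their reads there cannot be told apart where strand was not used.

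The other 4 members of chromosome 3 lie on the far side of XCR1. PARP3 and POLQ had log2 fold changes of 0.02 and 0.01 between crXCR1 and NTC, RNF168 of -0.05 and ATR of -0.01. ATR was at 22.2, 22.5 and 19.2 CPM in crXCR1, against 21.1, 24 and 19.2 CPM in NTC, and at 22.5, 21.9 and 21.6 CPM in crSUGP1. Those 4 genes thus stayed near 0. Between crSUGP1 and crXCR1, FANCD2 had a log2 fold change of 0.15 (adjusted p = 0.286 from edgeR), where the 225 genes of the stretch had a median of 0.22.

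**Figure D4:**
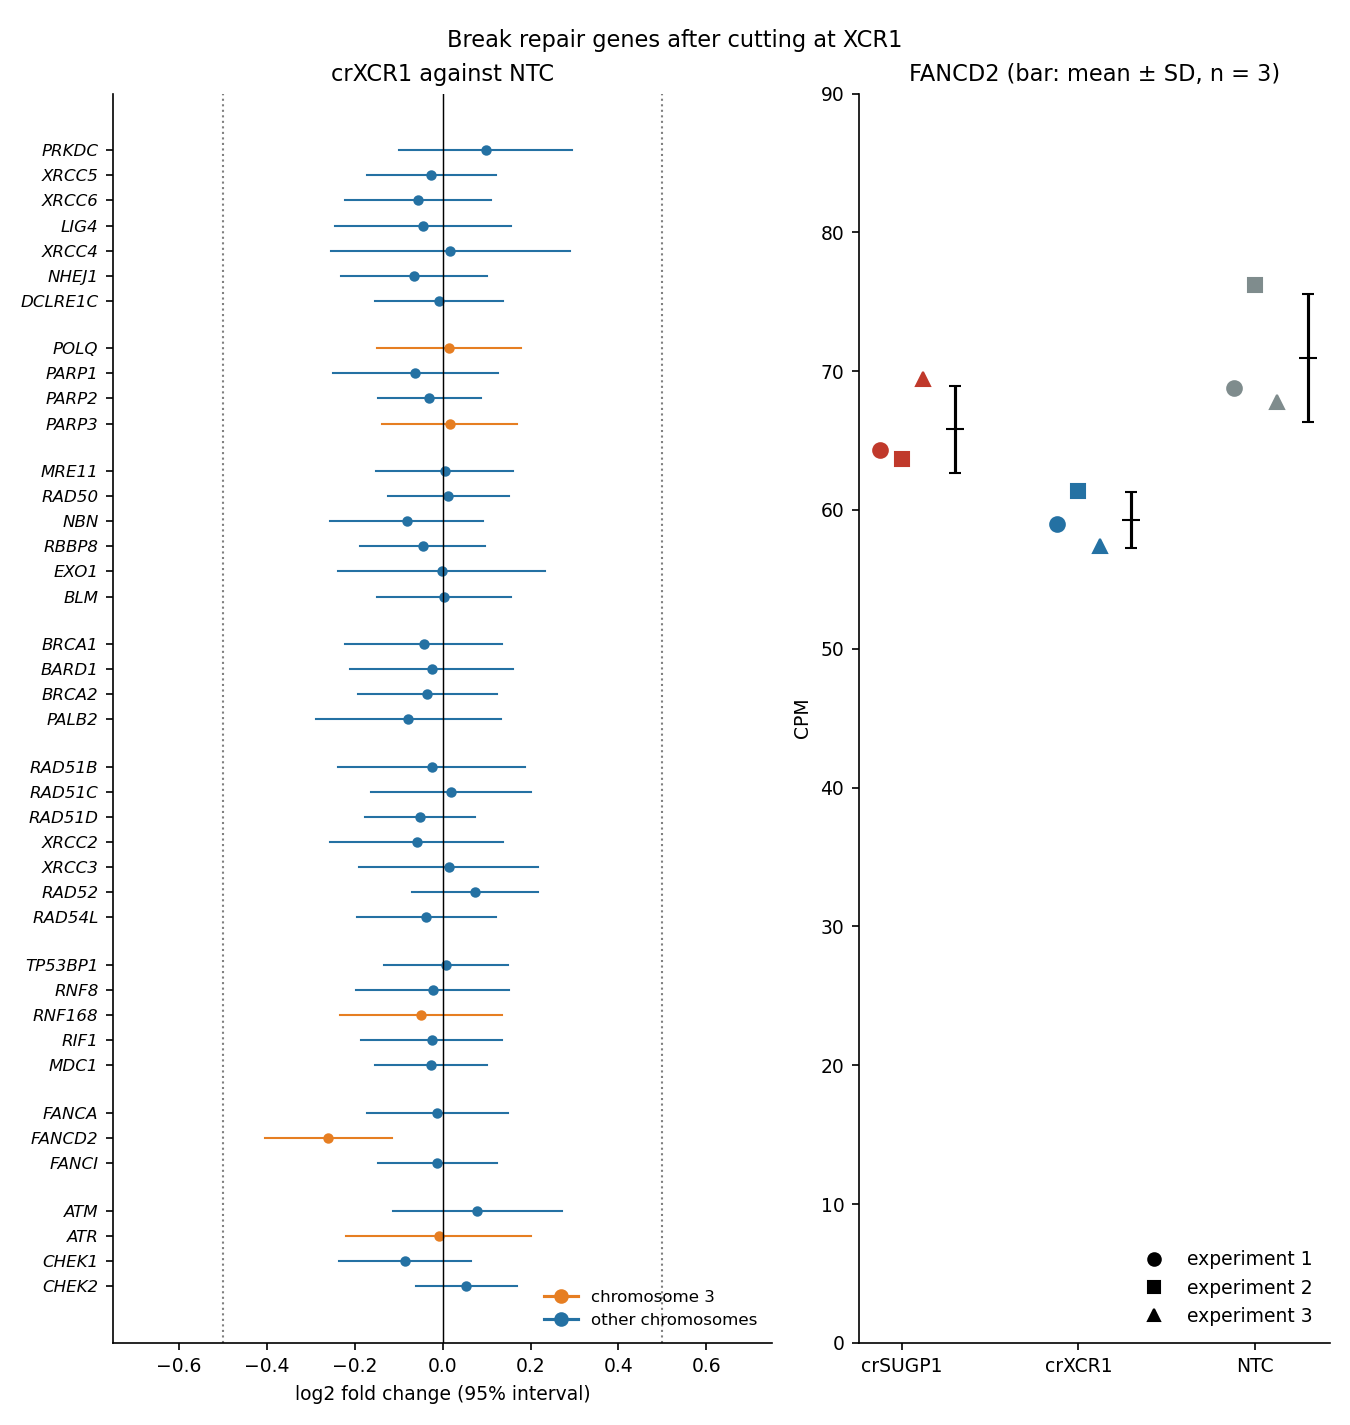
Left, log2 fold changes (x axis) of the 40 members in crXCR1 against NTC with 95% intervals from edgeR, with the 5 members of chromosome 3 in orange and the others in blue, and dotted lines at 0.5. Right, CPM of FANCD2 by guide and experiment with the mean ± SD of 3 libraries: the crXCR1 libraries, at 57.4 to 61.4 CPM, lie below the others.

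Between the experiments edgeR called 2231 of all genes, and none of them was a member. Each experiment is 1 occasion, so this compares libraries and not a condition that can be repeated. In experiment 3 against experiments 1 and 2, with the guide as a term, 0 of 40 members passed both thresholds by edgeR or DESeq2, where 10.6% of all genes tested did, and 4.28% of the 11899 genes at or above the level of the lowest member. At an unadjusted p under 0.05 there were 15 of 40 members by edgeR and 12 by DESeq2. Over all 21071 genes these counts were 11095 and 9530, so the members were not above the background. With the adjusted p alone, 10 of 40 members were lower, and this share of 25% was near the 23.2% of all genes that were lower. In the other direction 0 of 40 members were higher, where 22.9% of all genes were. The reason for this lack of higher members was not tested. The 10 shifts were small, from -0.21 for EXO1 to -0.11 for FANCA, with PRKDC at -0.18 and PARP1 at -0.17. PARP2 stood at 0.01.

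A wider list held 100 other genes of break repair and its neighbouring pathways, chosen with earlier results known, and 98 of them were tested. In crSUGP1, 2 of the 98 were called, both lower, against each control. Of all genes, 0.456% were called lower against NTC and 0.584% against crXCR1. The median log2 fold change of the list was 0.01 versus NTC and 0.02 versus crXCR1. RECQL, a DNA helicase of the RecQ family, was at 37.2, 36.5 and 38.7 CPM in crSUGP1, against 75.9, 73.9 and 71.7 CPM in crXCR1 and 72.5, 82 and 74.5 CPM in NTC. Its log2 fold change was -1.03 versus NTC and -0.98 versus crXCR1 (adjusted p = 1.1e-04 and 1.3e-04 from edgeR). LIG3, the ligase that works with XRCC1 in strand break repair and in alternative end joining, was at 32, 30.7 and 27.2 CPM in crSUGP1, against 51.2, 51.6 and 47.8 CPM in crXCR1 and 52.6, 53.2 and 50 CPM in NTC, with log2 fold changes of -0.79 and -0.74 (adjusted p = 6.2e-04 and 8.3e-04 from edgeR).

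As with PARP2, no crSUGP1 library of RECQL or LIG3 came near a control library. Without experiment 1 or 2, both lost their calls in the fit without the block (adjusted p up to 0.0977 for RECQL and 0.176 for LIG3 from edgeR). XRCC1, the scaffold that binds LIG3 and is recruited by PARP chains, had log2 fold changes of 0.20 and 0.24 (adjusted p = 0.179 and 0.101 from edgeR, 0.00616 and 0.00172 with the block, 0.0668 and 0.0135 with DESeq2). APEX1 had -0.14 and -0.07. Between crXCR1 and NTC, 0 of the 98 genes were called by edgeR.

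Of the processes around repair, few genes were called apart from p53 targets. Of 31 genes of S phase, 0 were called, although MCM2, a subunit of the replicative helicase, passed the adjusted p with log2 fold changes of -0.30 and -0.28 (adjusted p = 0.0175 and 0.0266 from edgeR). Of 29 mitotic genes, KIF20A alone, a kinesin of the central spindle, was called lower, at -0.65 and -0.75, where 0.456% and 0.584% of all genes were. Of 30 targets of p53, the factor that ATM and CHEK2 activate, 29 were tested and 9 were called higher in crSUGP1 against NTC, where 0.327% of all genes were, among them PURPL (0.78), BTG2 (0.54), SESN1 (0.65) and FDXR (0.56), and 1, PURPL (0.51), against crXCR1, where 0.19% of all genes were, a call that held in 3 of 9 fits without 1 library. The calls of KIF20A and of these p53 targets were also lost without experiment 1 or 2.

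As a list, the p53 targets lay higher than the repair members, a difference that was not tested. Their median log2 fold change was 0.32 in crSUGP1 against NTC, 0.21 in crSUGP1 against crXCR1 and 0.19 in crXCR1 against NTC, where the 40 repair genes had 0.03, 0.03 and -0.03. In the last of these comparisons 0 of 29 p53 targets were called by edgeR, where no gene at all was called. There 28 of the 29 were positive and 1 negative. At an unadjusted p under 0.05 there were 11 of 29 by edgeR, where 282 of all 21071 genes were.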

How the data were processed

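The deposited table holds whole-number counts per gene over exons, which the authors made without normalization from trimmed polyA read pairs placed on GRCh38. Among the tools in the submitters' processing notes are STAR 2.7.9a for alignment and Trim Galore 0.6.7 for trimming. The strand setting of the counting is not given in the sources used here.

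The 40 members and all lists were chosen with earlier results of these data known, and values in every library were to be given for members called in any fit, the PARP genes, the extremes of each comparison and members on the cut chromosomes, with called genes named from other lists. All other named genes were chosen with their values known, to describe a role group, the surroundings of PARP2 or partners of named genes. From the 38179 deposited entries, 2 repeated entries were dropped, and 31 entries without counts that shared a gene name with another entry. Then 21071 genes were kept (log2 CPM over -2, in 1 or more of 9 libraries). They were fitted with edgeR 4.0.16 in R 4.3.3 (TMM factors, guide as the sole term, 6 residual degrees of freedom). DESeq2 1.42.0 was the alternative test. CPM per kb used the length of the canonical transcript in GENCODE. Intervals are 95% intervals from the edgeR fit.

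The study's methods do not tie library numbers to experiments, and an equal number was taken to mark 1 shared experiment. The deviations of libraries with an equal number from the group means correlated at 0.498 to 0.902 over 9 pairs, against -0.854 to 0.66 over 18 other pairs. These ranges overlap, since crSUGP1 library 2 correlated at 0.66 with crXCR1 library 1 and at 0.498 with crXCR1 library 2. The experiment, by this number, was also fitted as a block. P-values without the block measure the spread between experiments of 1 cell line. Those with the block, and those of the contrast between experiments, rest on the spread left after guide and experiment are fitted. That fit has 4 residual degrees of freedom. Alternatives were other scaling, filters, tools and left-out libraries, and block fits with left-out libraries or DESeq2 were added after the data had been seen. Some genes of the lists are not reported here by name.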

Additional observations from a re-analysis of the deposited data

How the results depend on the processing

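Without a block, PARP2 was the 1 member called against NTC and against crXCR1 in every alternative listed at the outset except the fits without experiment 1 or without experiment 2, where 0 members were called in either comparison (range over left-out libraries and experiments 0 to 1). With the replicate block 1 member was called in both comparisons, also after leaving out any library or experiment, and the block changed no other call of a member. Over all alternatives the log2 fold change of PARP2 ranged from -0.889 to -0.825 against NTC and from -0.848 to -0.804 against crXCR1. RECQL and LIG3 lost their calls in the same 2 fits, which have 3 residual degrees of freedom and called 1 or 2 genes in all. Between crXCR1 and NTC, and between the experiments, 0 members were called under every alternative.

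The number of all genes called against NTC was 165 from edgeR, 601 with the block and 243 from DESeq2. Against crXCR1 these counts were 163, 821 and 271. The median of the members ranged from -0.049 to 0.077 against NTC, from -0.017 to 0.089 against crXCR1 and from -0.065 to 0.023 between crXCR1 and NTC.

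Values near 0 changed sign when libraries were left out, with or without the block. The ranges were -0.044 to 0.087 for NBN and -0.032 to 0.133 for ATR against NTC, and -0.019 to 0.120 for ATR against crXCR1. Between crXCR1 and NTC they were -0.056 to 0.004 for PARP2, -0.026 to 0.045 for PARP3, -0.053 to 0.061 for POLQ, -0.096 to 0.028 for RNF168 and -0.082 to 0.079 for ATR, with 0.008 for ATR when scaled by library totals alone. The cause was not tested.

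Each group has 3 libraries of 1 line. Counts per gene hold no splicing or protein levels.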
